A study of Mus musculus with 14 samples.

Results

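Genomic imprinting restricts the expression of a gene to the allele inherited from one parent. The allele is chosen by DNA methylation that is set in the germline at imprinting control regions, which then act on promoters, insulators and long non-coding RNAs (lncRNAs) over whole gene clusters. Acetylation of lysine 27 of histone H3 (H3K27ac) marks active promoters and enhancers, so its position at an imprinted cluster shows which of these elements carried the mark in the cells examined. Here 10 imprinted mouse genes were described, namely H19, Igf2, Cdkn1c, Kcnq1ot1, Meg3, Dlk1, Peg3, Mest, Grb10 and Plagl1. Every H3K27ac site that shared at least 1 base with the body of one of these genes (GENCODE, mm10) or with the 20 kb on either side was taken. This gave 37 sites out of 122228 in the list.

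The cells were immortalised mouse embryo fibroblasts (iMEF), in which exon 4 of the floxed endogenous Ash2l alleles had been excised by a tamoxifen-activated Cre in all groups, controls included. A lentiviral construct supplied human ASH2L with an N-terminal FKBP12F36V tag, through which dTAG-13 causes its degradation. ASH2L belongs to the KMT2 complexes, which place methyl groups on lysine 4 of histone H3. Untreated cells gave 2 H3K27ac libraries, as did each time of dTAG treatment (30 min, then 2, 4, 8 and 16 h), and inputs were sequenced once without dTAG and once at 16 h. The cells descended from clones grown from single transduced cells, so the list describes a clonal line and not fibroblasts in general.

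The list joined the sites of all time points and gave only their positions. It held no value for individual samples, so there was no replicate error, the number of reads behind a site was not given, and neither a test nor a time course could be made from it. A site could stem from any time point. A gene without a site was one at which no site was listed, which does not show that acetylation was absent. The antibody does not tell the 2 parental alleles apart, and a site says nothing about strand. Of the fibroblast markers Col1a1, Col1a2, Col3a1, Thy1, Pdgfra, Pdgfrb, Vim, S100a4, Dcn and Lum, 7 of 10 had a site within 1 kb of an annotated start, the exceptions being Col1a1, Dcn and Lum. Such a site was present at 0 of 4 blood markers, 0 of 4 muscle markers, 1 of 4 neural markers (Tubb3), 1 of 5 epithelial markers (Krt8) and 2 of 4 endothelial markers (Cdh5, Tek). Over all protein-coding genes the share was 54.7%. The median number of sites in the window was 14 for fibroblast, 12 for epithelial, 5 for endothelial, 2 for blood, 1.5 for neural and 1 for muscle markers. Of the fibroblast markers, 2 had 0 sites in the window. These short lists therefore do not establish the cell type.

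The imprinted genes fell into a marked and an unmarked group. A gene was called marked if the middle of a site lay within 1 kb of the start of any of its annotated transcripts. Kcnq1ot1, Mest, Grb10 and Plagl1 were marked, and H19, Igf2, Cdkn1c, Meg3, Dlk1 and Peg3 were not. Among the 7 protein-coding genes 3 were marked, compared to 54.7% of all 21755 protein-coding genes. Among the 3 lncRNA genes 1 was marked, compared to 24.4% of all 12813 lncRNA genes. The 6 unmarked genes had 0 sites anywhere in the gene body or the 20 kb on either side. At least 1 site lay in a window of this kind at 75.0% of protein-coding and 65.8% of lncRNA genes. The median was 4 sites for protein-coding genes, with quartiles of 0 and 8, and 2 sites for lncRNA genes, with quartiles of 0 and 5.

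**Figure D1:**
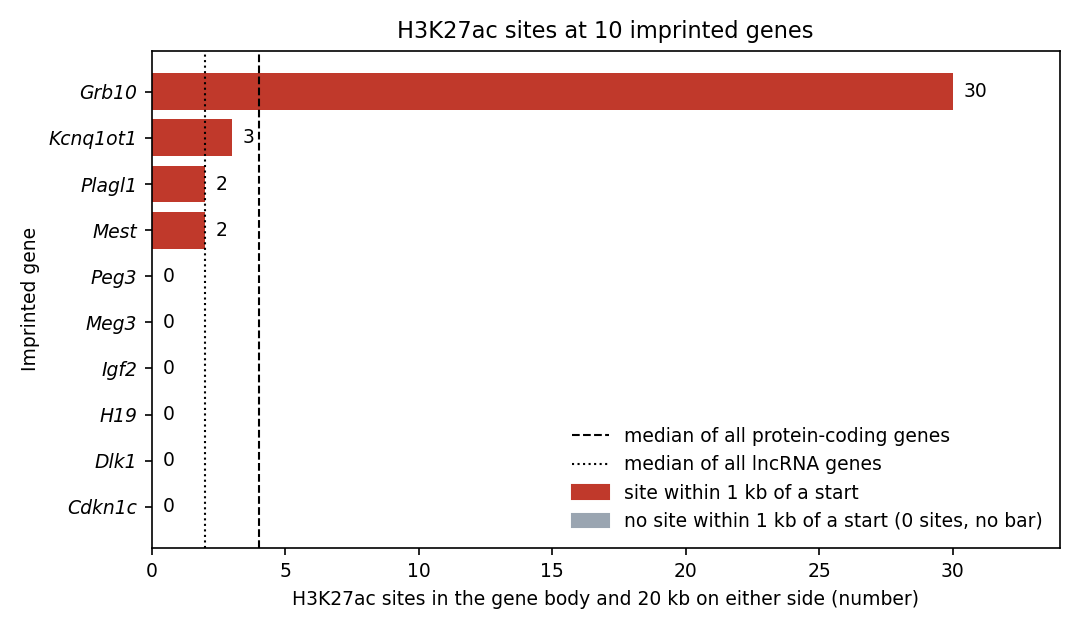
Number of H3K27ac sites in the body of each imprinted gene and 20 kb on either side (horizontal axis), with 1 bar per gene. Vertical lines give the medians of all protein-coding genes (dashed) and all lncRNA genes (dotted). Grb10 had 30 sites, Kcnq1ot1 had 3, Mest and Plagl1 had 2 each, and the other 6 genes had 0.

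The sites were distributed very unevenly among the marked genes. Grb10 held 30 of the 37 sites (81.1%) and 84.0% of the 23176 bp they covered. Of the 37 sites, 12 lay within 1 kb of a start of the gene itself and 25 lay further away, 22 were intronic and 6 overlapped a CpG island. In 2 genes, Kcnq1ot1 and Grb10, the outermost 5′ end was inside a site. The median width was 459 bp, compared to 401 bp over all sites, and 5 of the 37 were narrower than 265 bp, the lower quartile of all sites.

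CpG islands alone did not separate the 2 groups. An island, called from the sequence, lay within 1 kb of a start of 8 of the 10 genes. These comprised the 4 marked genes and 4 unmarked genes, Igf2, Cdkn1c, Dlk1 and Peg3, while H19 and Meg3 had none. All 7 protein-coding genes had such an island and 3 of them had a site. For comparison, 80.1% of the 12965 protein-coding genes with an island had a site, compared to 17.4% of those without. Within 500 bp of the outermost 5′ end, the GC content of the marked genes ranged from 41.2 to 53.4% and that of the unmarked genes from 51.2 to 69.3%. Mest and Plagl1 use starts far downstream of this end, as described below, and the RefSeq start of Grb10 lies 1263 bp downstream of it. In the 300 bases of the RefSeq promoters, GC content was 53.3% for Kcnq1ot1, 59.3% for Mest, 80% for Grb10 and 70.7% for Plagl1. There it was 52.3% for Igf2, 53.7% for Meg3, 55.7% for Dlk1 and 61.3% for Peg3, without an entry for H19 and Cdkn1c. The Mest value is not that of a marked start, since its RefSeq start, 9959 bp downstream, had no site and no island within 1 kb. The Igf2 value is from its outermost start, which had no island within 1 kb. The lower GC content of Grb10 and Plagl1 thus depended on the start taken.

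The sequences of 2 marked and 2 unmarked regions of these clusters are shown to give the letters around the methylated elements. They are from GRCm38 (mm10) and written in the direction of the gene. Capitals mark TGCCGC, the letters bound by ZFP57 when methylated, and GCCATNTT, the letters bound by YY1, on either strand. ZFP57 is a zinc finger protein that preserves methylation imprints in the early embryo, and YY1 is a zinc finger protein known to bind the first intron of Peg3. The first marked stretch is the central 300 bases of the wide site at the Kcnq1ot1 start (chr7:143295620-143295919, minus strand, non-coding exon). The second is the central 300 bases of the narrower site just upstream of the main Plagl1 starts (chr10:13090312-13090611, plus strand, intron). It ends before the first of these starts (chr10:13090691), and only its last part, from chr10:13090533, lies in the island. The unmarked stretches are the central 300 bases of the island in the first intron of Peg3 (chr7:6729469-6729768, minus strand) and the whole 220-base island between Dlk1 and Meg3 (chr12:109528253-109528472, plus strand, intergenic).
Kcnq1ot1, marked: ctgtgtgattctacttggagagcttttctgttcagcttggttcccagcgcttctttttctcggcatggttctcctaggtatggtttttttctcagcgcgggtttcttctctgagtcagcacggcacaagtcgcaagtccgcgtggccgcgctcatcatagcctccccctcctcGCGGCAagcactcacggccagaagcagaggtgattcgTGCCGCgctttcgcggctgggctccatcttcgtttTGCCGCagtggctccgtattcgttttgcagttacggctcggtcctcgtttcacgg
Plagl1, marked: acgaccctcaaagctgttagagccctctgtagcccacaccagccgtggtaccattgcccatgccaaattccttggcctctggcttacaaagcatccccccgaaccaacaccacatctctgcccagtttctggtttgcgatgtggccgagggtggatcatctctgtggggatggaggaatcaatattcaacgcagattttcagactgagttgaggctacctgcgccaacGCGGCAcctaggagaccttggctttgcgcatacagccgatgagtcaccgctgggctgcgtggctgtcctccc
Peg3 first intron, unmarked: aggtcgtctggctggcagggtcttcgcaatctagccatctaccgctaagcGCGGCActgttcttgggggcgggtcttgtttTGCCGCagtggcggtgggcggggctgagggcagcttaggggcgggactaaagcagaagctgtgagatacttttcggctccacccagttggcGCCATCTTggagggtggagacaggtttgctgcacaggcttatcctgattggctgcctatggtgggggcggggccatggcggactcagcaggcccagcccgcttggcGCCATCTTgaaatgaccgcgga
Upstream of Meg3, unmarked: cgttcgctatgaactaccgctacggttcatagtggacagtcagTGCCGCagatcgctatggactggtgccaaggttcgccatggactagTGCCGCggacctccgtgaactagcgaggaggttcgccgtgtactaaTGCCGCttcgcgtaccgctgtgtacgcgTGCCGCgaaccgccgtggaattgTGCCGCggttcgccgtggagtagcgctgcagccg
The Kcnq1ot1 stretch held 26 CpG dinucleotides and 3 ZFP57 matches. The Plagl1 stretch, mostly outside its island, held 13 CpGs and 1 match, so its counts are not those of an island. The unmarked Peg3 stretch held 18 CpGs, 2 ZFP57 matches and 2 YY1 matches. The unmarked island upstream of Meg3 held 29 CpGs and 5 ZFP57 matches within its 220 bases. These letters were therefore present in regions with and without a site. Of the 19 islands in the windows of the 10 genes, 5 overlapped a site and 4 of these contained TGCCGC, whereas 11 of the 14 islands without a site contained it. It was present in 48.8% of all 17118 islands, 61.9% of which overlapped a site. A match is a description of the letters and does not show binding.

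Kcnq1ot1 is a long antisense RNA that starts within an intron of Kcnq1, is transcribed from the paternal allele and silences neighbouring genes such as Cdkn1c on that allele. The gene body (chr7:143203458-143296549, minus strand) has a single annotated start, which lay inside a site of 1575 bp, which ran from 7 bp upstream to 1567 bp downstream of the 5′ end and overlapped both islands there, of 246 and 698 bp. A second site of 555 bp followed on the upstream side, 207 to 761 bp from the 5′ end, in the Kcnq1 intron. The third was a minimal site of 200 bp, 25.7 kb into the transcript. No further site was listed in the 133092 bp of this window. Hence the Kcnq1ot1 sites were concentrated at the promoter, and the remainder of the 93092-bp transcript carried 1 narrow site only.

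Cdkn1c encodes the cyclin-dependent kinase inhibitor p57 and is expressed from the maternal allele. In contrast to Kcnq1ot1, it was located (chr7:143458339-143461050, minus strand) in a stretch of 148 kb without a site. Its start lay in an island of 2422 bp with a GC content of 71.1%, and 0 of its 5 starts had a site. The nearest sites were 55.9 kb upstream, in an intron of Nap1l4, and 92.4 kb downstream, in an intron of Kcnq1. The imprinted neighbours Phlda2 and Slc22a18 have their 5′ ends in the same stretch and were unmarked as well. Between the bodies of Cdkn1c and Kcnq1ot1, over 162 kb, 5 sites were listed. Of these, 2 were the sites at the Kcnq1ot1 start. The wider of these 2, of 1575 bp, reached only 7 bp into this interval, and 4 sites had their middle in it. The other 3 were at Kcnq1, with widths of 493 and 554 bp about 110 kb downstream of the Cdkn1c 5′ end and of 359 bp at the position 92.4 kb downstream named above. The potassium channel gene Kcnq1 had 9 sites in its own window but no site within 1 kb of its starts. The Kcnq1ot1 start lies within Kcnq1, so these 9 include the 3 sites of the Kcnq1ot1 window.

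Igf2, a fetal growth factor expressed from the paternal allele, and the maternally expressed lncRNA H19 share enhancers downstream of H19. Between them lies a control region, methylated on the paternal allele, where CTCF binds the maternal allele and insulates Igf2 from these enhancers. H19 (chr7:142575529-142578143, minus strand) and Igf2 (chr7:142650766-142666816, minus strand) lay together in a site-free stretch of 335 kb, which also contained the 5′ end of Ins2. Neither the 7 annotated starts of H19 nor the 9 of Igf2 had a site. The 72.6 kb between the 2 genes held 0 sites. The window 2 to 4 kb upstream of the H19 5′ end, taken here for the control region, is part of these 72.6 kb and so held 0 sites. It contained 3 matches to CGNGGNGGC, the core letters of the CTCF motif, and 5 matches to TGCCGC. The 2 islands of Igf2, of 3042 and 479 bp, overlapped no site, and the nearest site was 132 kb downstream of the Igf2 5′ end.

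The shared enhancers were examined in 3 windows downstream of the H19 5′ end. The window of the endodermal enhancers, 5 to 12 kb downstream, held 0 sites, and the window of the mesodermal enhancers, 20 to 40 kb downstream, held 0 sites as well. Both lie within the site-free stretch of 335 kb described above, so these values follow from it and are no separate result. In the further mesodermal region, 40 to 120 kb downstream, 11 sites covered 15496 bp. These were not spread evenly. At the start of Mrpl23, which encodes a mitochondrial ribosomal protein, there were 2 sites of 518 and 1283 bp, 43.5 to 45.5 kb downstream of H19. At Lsp1, which encodes an actin-binding protein first described in leukocytes, there were 8 sites between 90.0 and 108 kb, with widths of up to 4193 bp. The last, of 1665 bp, was intergenic, 118 kb from H19 and 1779 bp from the nearest Lsp1 start. Thus every site of this region was at or near another gene, and positions alone cannot assign these sites to Igf2 or H19. On the other side, the first site was an intergenic one of 448 bp, 203 kb upstream of Igf2.

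Dlk1, a transmembrane protein of the Notch ligand family expressed from the paternal allele, and the maternally expressed lncRNA Meg3 form a cluster on chromosome 12. Here the control region is intergenic and methylated on the paternal allele. Dlk1 (chr12:109452823-109463336, plus strand) and Meg3 (chr12:109541001-109571726, plus strand) lay in a common site-free stretch of 677 kb. It extended from a site of 255 bp at the Begain start to a site of 289 bp in an intron of Mirg, 204 kb downstream of the Meg3 5′ end. The imprinted genes Rtl1, Rian and Mirg also have their outermost 5′ ends in it. None of the 9 starts of Dlk1 or the 11 of Meg3 had a site, although all 9 Dlk1 starts were close to an island. The 77.7 kb between the genes held 0 sites. The window 8 to 18 kb upstream of Meg3, taken for the control region, is part of these 77.7 kb and so held 0 sites. It contained 10 matches to TGCCGC and the 220-bp island shown above. At the far end of the cluster, the lncRNA Mirg had 5 sites in its window. It was marked, but only at a start downstream of its outermost 5′ end.

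**Figure D2:**
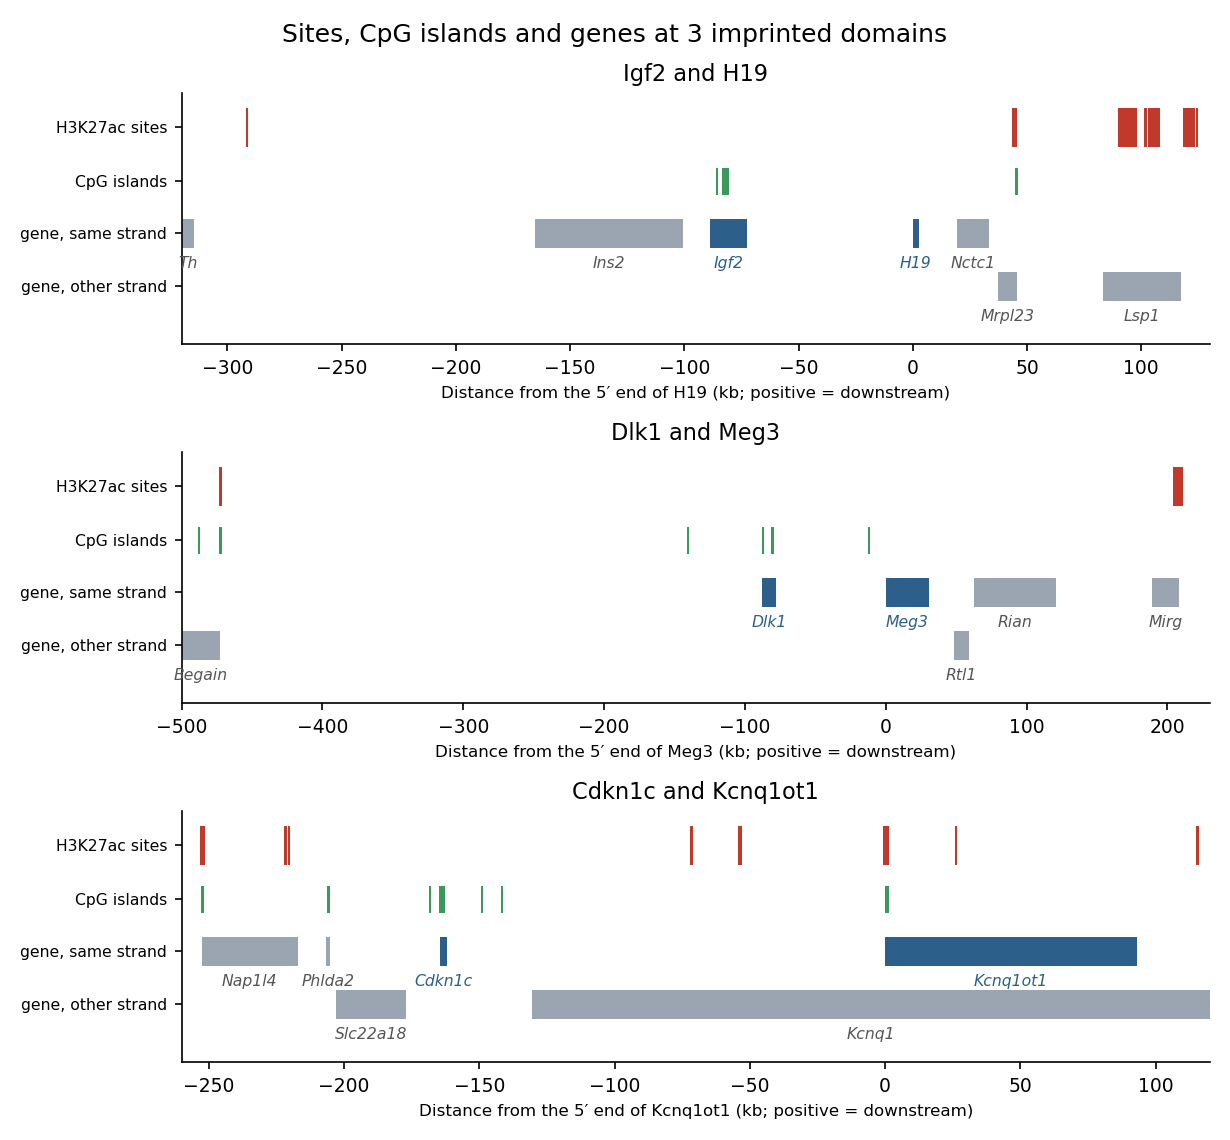
Maps of 3 imprinted clusters, with distance from the 5′ end of H19, Meg3 or Kcnq1ot1 in kb on the horizontal axis. Red boxes are H3K27ac sites, green boxes CpG islands, blue boxes the imprinted genes described and grey boxes selected neighbours, and very short features are drawn wider than they are so that they can be seen. No site lies between Igf2 and H19 or between Dlk1 and Meg3, whereas the Kcnq1ot1 start carries sites of 1575 and 555 bp.

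Peg3 encodes a zinc finger protein and is expressed from the paternal allele, with a promoter that is methylated on the maternal allele. It lay (chr7:6703892-6730431, minus strand) in the longest site-free stretch of the 10 genes, 722 kb. The stretch ran from a site of 379 bp at the starts of Smim17 and Gm16306 to a site of 438 bp at the start of Zfp954. It contained 13 protein-coding 5′ ends, including those of the imprinted neighbours Usp29 and Zim1 and a group of olfactory receptor genes, and 7 islands. Repeats made up 39.1% of its sequence and unsequenced bases 0%. The 2 islands at the Peg3 start, of 372 and 335 bp, overlapped no site, and the nearest site was 331 kb from the 5′ end.

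Mest and Plagl1 resemble Peg3 in having an island promoter that is methylated on the maternal allele and in being expressed from the paternal allele, yet both had sites at this island. Mest encodes a protein of the alpha/beta hydrolase family. Its body (chr6:30723547-30748465, plus strand) carried 2 sites, both narrow. The first, of 218 bp, was in an intron 846 bp downstream of the outermost 5′ end (chr6:30724393-30724610). The second, of 243 bp, lay 14.6 kb downstream, inside an island of 592 bp at 3 further starts (chr6:30738169-30738411, coding exon and untranslated region). Its GC content was 72.8%, and the surrounding island held 7 matches to TGCCGC, more than any other of the 19 islands. Both widths were below 265 bp. Hence the call of Mest as marked rested on sites of little more than the minimal width of 200 bp.

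Plagl1 encodes a zinc finger transcription factor that restrains proliferation. Its body (chr10:13060504-13131694, plus strand) also carried 2 sites, of 373 bp (chr10:13090275-13090647) and 540 bp (chr10:13090826-13091365). They lay 29.8 to 30.9 kb downstream of the outermost 5′ end, overlapped an island of 786 bp with 6 matches to TGCCGC, and were within 1 kb of 8 of the 11 annotated starts. A single one of these starts is shared by 13 transcripts. By contrast, the outermost start had an island of 345 bp without a site, and the nearest site was 29.0 kb away. The mark of Plagl1 was thus located at its internal island promoter and not at the outermost one.

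**Figure D3:**
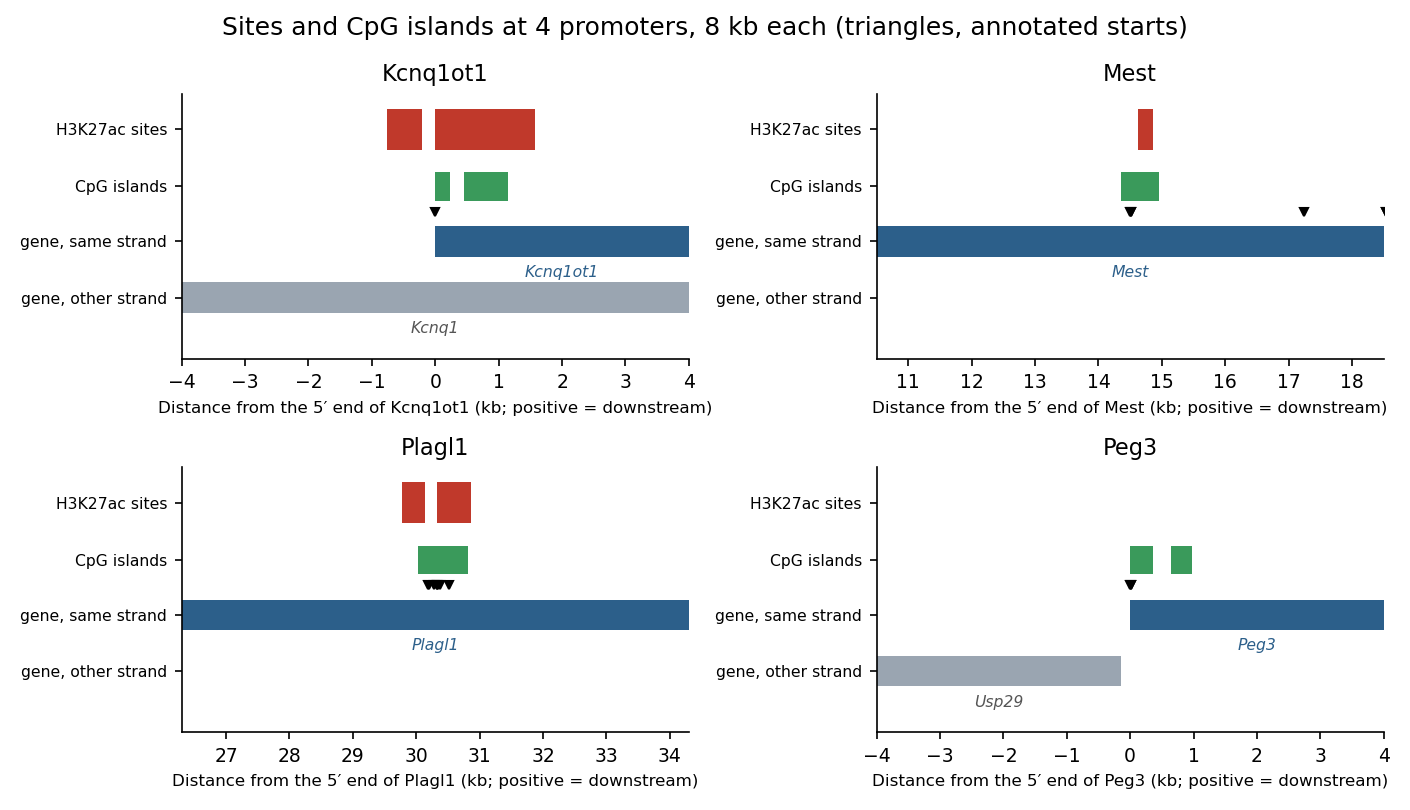
Sites (red), CpG islands (green), annotated starts (triangles) and genes (blue; grey for neighbours) in 8 kb around the island promoters of Kcnq1ot1, Mest, Plagl1 and Peg3, with distance from the outermost 5′ end of the gene in kb on the horizontal axis. The islands of Kcnq1ot1, Mest and Plagl1 overlap sites of 1575, 243, and 373 and 540 bp, and the 2 Peg3 islands overlap none.

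Grb10 differed from the other genes by the number and spread of its sites. It encodes an adaptor protein that binds the insulin and insulin-like growth factor receptors and is expressed from the maternal allele in most tissues and from the paternal allele in neurons. The gene (chr11:11930508-12038683, minus strand) and its flanks held 30 sites that covered 19472 bp, or 13.1% of the window. This was 20.2 sites per 100 kb, compared to a median of 4.88 over protein-coding genes, and 2.79% of protein-coding genes had more than 30 sites in such a window. Per 100 kb, 8.54% of protein-coding genes reached the Grb10 value. Since long windows can hold more sites, the second share is the closer comparison.

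When sites less than 10 kb apart were grouped, the Grb10 sites formed 3 blocks. The first comprised 6 sites from 0.88 kb upstream to 6.89 kb downstream of the 5′ end, with 5198 bp in all. It included a site of 1320 bp over the outermost start (chr11:12037560-12038879) and a site of 1198 bp next to it (chr11:12036263-12037460), both of which overlapped the island of 1619 bp at the promoter used in most tissues. The widest Grb10 site, of 1775 bp, was intronic and also in this block (chr11:12034398-12036172). The second block was a single site of 202 bp, 37.9 kb downstream. The third block held 23 sites with 14072 bp over 50.1 kb, from 59.5 to 109.6 kb downstream, thus in the distal part of the gene and just beyond its end. The median width there was 499 bp and the widest site measured 1670 bp (chr11:11953400-11955069). The sites at 59.5 and 109.4 kb stood apart from the others of this block, which lay between 69.7 and 101.3 kb. The grouping distance of 10 kb was not varied. None of these 23 sites overlapped an island, and their GC content ranged from 43.8 to 53.9%. They were therefore mostly away from CpG-rich sequence, and 3 of them were within 1 kb of annotated starts, which belong to transcripts without a coding sequence.

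The 2 islands of Grb10 differed. The island at the outermost start overlapped 2 sites. The internal island of 1044 bp, 12.1 kb downstream (chr11:12025555-12026598), is methylated on the maternal allele and serves the paternal transcripts of neurons. It overlapped no site, the nearest site being 5191 bp away, and the 2 starts within it or next to it were unmarked. Both islands held 4 matches to TGCCGC. Of the 9 annotated Grb10 starts, 4 were marked. Ddc, an imprinted neighbour 32.4 kb from Grb10 that encodes aromatic L-amino acid decarboxylase, had 11 sites in its window but no site at a start.

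**Figure D4:**
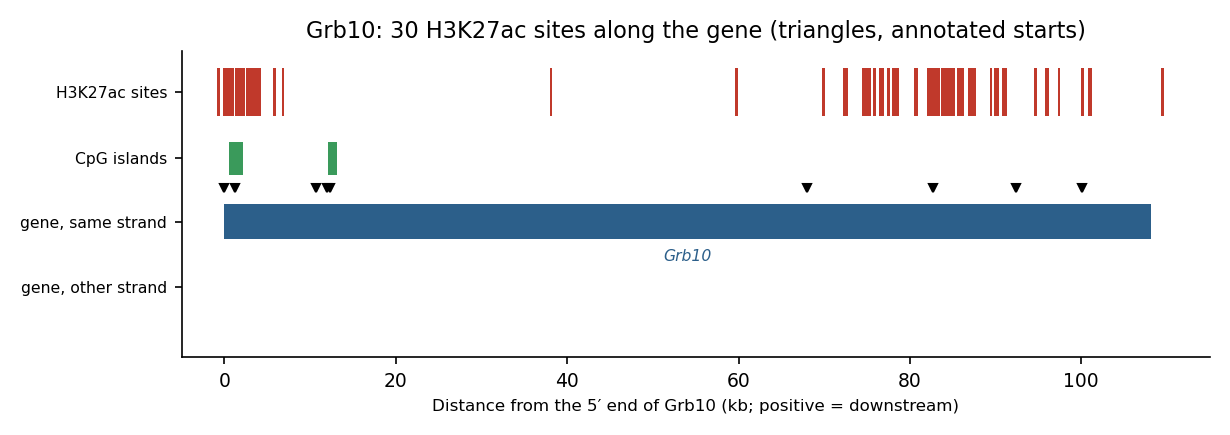
H3K27ac sites (red), CpG islands (green) and annotated starts (triangles) along Grb10 (blue), with distance from the outermost 5′ end in kb on the horizontal axis. Sites cluster at the first island, are absent from the internal island 12.1 kb downstream, and are dense again from 69.7 to 101.3 kb. Single sites lie apart from these at 59.5 and 109.4 kb.

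The length without a site around each 5′ end was compared with that of other genes. For the 6 unmarked genes it ranged from 148 to 722 kb, with a median of 506 kb, and for the 4 marked genes from 0 to 80.7 kb, a difference that the definition of marked largely fixes. The 6 values stem from 4 stretches, because H19 and Igf2 share one, as do Dlk1 and Meg3. The median was 16.7 kb over all protein-coding genes, with quartiles of 0 and 169 kb, and 57.0 kb over lncRNA genes. A longer stretch was found for 26.5% of protein-coding genes in the case of Cdkn1c, 18% for Igf2, 11.5% for Dlk1 and 11.0% for Peg3. The corresponding shares of lncRNA genes were 19.1% for H19 and 11.7% for Meg3. These shares also follow in large part from the choice of unmarked genes, since most genes in the comparison have a site nearby. Among the 5443 protein-coding genes with 0 sites in the window, the median stretch was 520 kb, and a longer one was found for 84.4% in the case of Cdkn1c, 62.9% for Igf2, 42.3% for Dlk1 and 40.7% for Peg3. Among the 4387 lncRNA genes with 0 sites in the window, the shares were 51.0% for H19 and 32.4% for Meg3. Compared with genes that likewise had no site in the window, the stretch of Cdkn1c was short, and those of the other 5 genes were between the quartiles, which were 213 and 1198 kb for protein-coding and 158 and 888 kb for lncRNA genes.

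**Figure D5:**
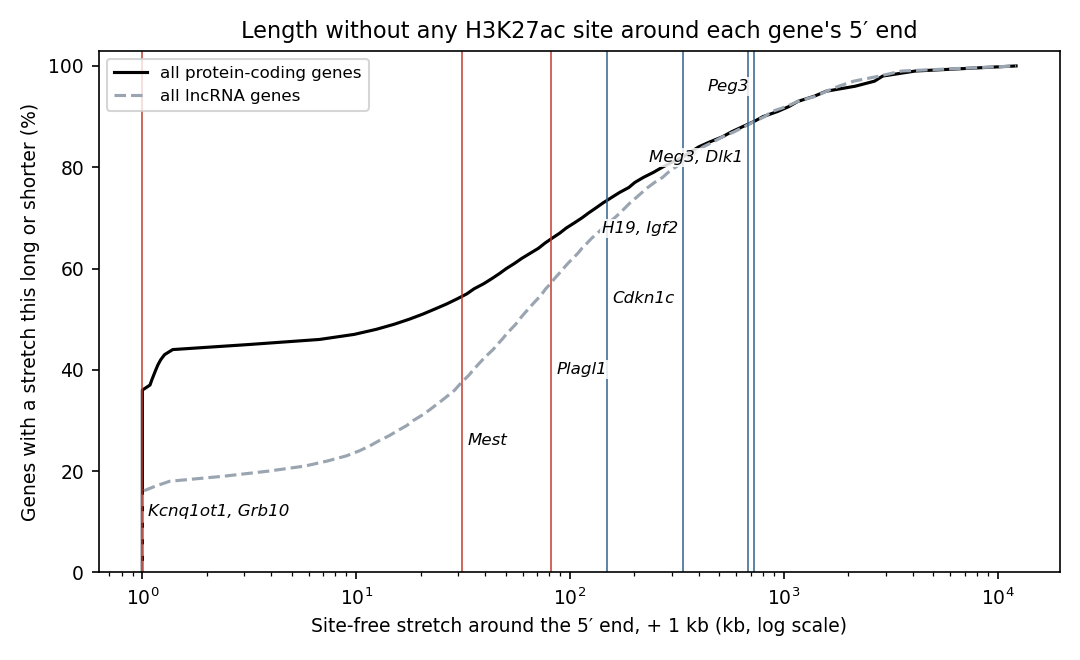
Share of protein-coding genes (solid line) and lncRNA genes (dashed line) whose 5′ end lies in a site-free stretch of at most the length on the horizontal axis (kb plus 1 kb, log scale). Vertical lines give the imprinted genes, marked ones in red and unmarked ones in blue. The unmarked genes lie at 148 kb (Cdkn1c), 335 kb (H19, Igf2), 677 kb (Dlk1, Meg3) and 722 kb (Peg3).

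The wider surroundings divided the unmarked genes further. In the 1 Mb around the 5′ end, H19 had 61 sites, Igf2 56, Cdkn1c 65 and Kcnq1ot1 61, which is close to the median of 60 for protein-coding genes and 56 for lncRNA genes. Meg3, Dlk1 and Peg3 had 9, 8 and 12. Hence the stretch of H19 and Igf2 and that of Cdkn1c were 2 separate gaps, with the Kcnq1ot1 sites between them, in a region whose site number was near these medians, whereas Dlk1, Meg3 and Peg3 lay in regions with few sites. Mest with 150, Plagl1 with 160 and Grb10 with 77 sites in 1 Mb were above these medians.

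The same rule was applied to 42 other imprinted mouse genes. A marked start was found for 21 of them (50%), and 12 (28.6%) had 0 sites in the window. Of the 38 protein-coding genes 18 (47.4%) were marked, and of the 29 protein-coding genes with an island 16 (55.2%) were marked. The shares for all protein-coding genes were 54.7% and, with an island, 80.1%. Among the 11 genes within 200 kb of one of the 10 genes above, 2 were marked, Copg2, which overlaps Mest, and Mirg. The others were Ins2, Phlda2, Slc22a18, Kcnq1, Usp29, Zim1, Rtl1, Rian and Ddc. All of these except Kcnq1 and Ddc have their 5′ ends in the site-free stretches of the 10 genes. The shares above include them and are therefore not independent of the 10 genes. Igf2r, which encodes the receptor that clears IGF2 and is expressed from the maternal allele, had 38 sites in its window, and its antisense lncRNA Airn had 44. These 2 windows overlap and share sites. With H13 at 28 sites, they were the genes of this list with site numbers close to or above that of Grb10.

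The sequence features of the 37 sites were mainly those of Grb10, which held 30 of them. Over the 37, the median GC content was 49.8%, compared to 48.8% over all sites, the observed to expected CpG ratio was 0.181 compared to 0.205, and repeats made up 5.59% compared to 11%. The 30 Grb10 sites had a median GC content of 48.8% and a CpG ratio of 0.177. The 7 sites of Kcnq1ot1, Mest and Plagl1 were richer in CpG, with medians of 55.5% and 0.511, and their CpG ratios ranged from 0.0740 to 0.968. The letters TGANTCA, bound by AP-1, were in the central 200 bases of 3 sites (8.11%), compared to 8.09% of all sites. GGAATG, bound by TEAD factors, was in 4 sites (10.8% compared to 12.3%), CGNGGNGGC in 1 (2.70% compared to 2.24%) and GCCATNTT in 0 (3.54% of all sites). TGCCGC was in 6 of the 37 (16.2%), compared to 3.46% of all sites. These 6 were the wide Kcnq1ot1 site, the island site of Mest, both Plagl1 sites and 2 sites of Grb10, and 5 of the 6 overlapped an island. In promoters of 300 bases from RefSeq, TGCCGC was present in 11.6% of 27025, TGANTCA in 7.93%, GGAATG in 14.6%, CGNGGNGGC in 9.78% and GCCATNTT in 6.23%. TGCCGC contains a CpG, and the 3.46% over all sites was not matched to these 6 sites in CpG content. All letters were searched on both strands, and matches to different letters can share bases, as CGNGGNGGC and TGCCGC can.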

How the data were processed

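H3K27ac ChIP-seq was carried out by the authors in iMEF cells, with 12 H3K27ac and 2 input libraries in 8 groups per the labels. Per the study's methods and the processing notes, reads were trimmed with Trim Galore and aligned with BWA to mm10 (GRCm38.p6), replicates were merged, and narrow peaks were called with MACS. The versions, the peak threshold and how the peaks were joined are not given in the sources used here. The authors deposited 1 list of genome positions in base pairs (chromosome, start, end), without read counts, scores or sample names. The study's methods name a minimum number of raw reads planned per ChIP library, but the depth reached in each library and at each site cannot be read from the list. Joining can make a site wider than it was in any single sample.

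Starts were read as counted from 0 and are printed counted from 1. The 122171 sites on chromosomes 1 to 19 and X were used, with GENCODE release M21 and the GRCm38.p6 sequence. The 5′ end is the outermost start of a gene. CpG islands were called from the repeat-masked sequence, scoring CpGs 17 and other bases -1, and kept from 200 bp upwards if GC reached 50% and observed/expected CpG reached 0.6. The distances of the control region and enhancer windows were taken from general knowledge and are approximate. RefSeq promoters of GRCm38.p6 (250 bases before to 50 after the start) were used for motif shares and for a second measure of GC content. Of the 10 genes 8 were found there, and H19 and Cdkn1c were not. Counts, medians and shares are descriptions, and no test was made, because the list held no replicates. The procedures were tested on simulated data. Python 3.11.15, numpy 2.4.6, pandas 2.3.3, numba 0.67.0 and matplotlib 3.10.9 were used.

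The 10 genes, the other gene lists and the alternatives were chosen with earlier results of these data known. All 10 genes are named in the text. Of the other imprinted genes those within 200 kb of them are named, and Igf2r, Airn and H13 were named after their values were seen. Other genes are named where they have a start near a site, flank a site-free stretch or mark a cell type.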

Additional observations from a re-analysis of the deposited data

How the results depend on the processing

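The list held no replicates, so no replicate could be left out. No paired analysis was possible because no value came from a test or from single samples. Each of 8 counts was recomputed under alternative settings, 32 in all, and 28 stayed within 1.5 times the value reported. The number of sites at the 10 genes rose from 37 to 58 with 50 kb on either side, where H19 gained the 2 sites at Mrpl23, and fell to 19 when sites less than 1 kb apart were merged, with 14 at Grb10. With the same merging, the sites downstream of H19 numbered 5 in place of 11, and those between Cdkn1c and Kcnq1ot1 numbered 3 in place of 5. The genes without a site were 5 with 50 kb and 7 without the narrowest 25% of sites, when Mest lost both of its sites. Marked genes numbered 3 if the outermost 5′ end alone was used, without Plagl1, and 3 without the narrowest 25%, without Mest. Kcnq1ot1 and Grb10 were marked under each of the 5 alternatives. Of these, the rules of 2 kb, 3 kb and any overlap with the 1 kb window only widened the main rule. A marked gene could not lose its call under them. The unmarked genes could not gain one, since no site lay in their windows. The count of 4 marked genes was thus fixed beforehand under these wider rules. Only the outermost 5′ end and the removal of the narrowest 25% could take a call away. The stretches between Igf2 and H19 and between Dlk1 and Meg3 held 0 sites under each of the 3 alternatives run for them. None of these 3 can add a site to a stretch without one, so this outcome was fixed beforehand and is no measure of stability. The outcomes for these stretches and those of the wider rules for marked genes are nevertheless included in the 28 named above. Other imprinted genes with a marked start ranged from 17 to 23. The list gives no reads per site, so how far a deeper library would add sites at the unmarked genes was not tested.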
